A study of Homo sapiens with 8 samples.

Results

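The expression of 7 aldo-keto reductase genes was followed across ABC1 and HCC4006 cells: *AKR1C1*, *AKR1C2*, *AKR1C3*, *AKR1B10*, *AKR1B1*, *AKR1A1* and *AKR7A2*. They were chosen by name, as members of this enzyme family, and are 7 of the 57815 gene identifiers with an expression value. ABC1 and HCC4006 are established lung adenocarcinoma cell lines with no mutation in *KEAP1* or *NRF2*, grown in low-glucose DMEM with fetal bovine serum. Cells of each line received 100 μM diethylmaleate (DEM) for 16 h or the vehicle DMSO. DEM is an electrophile that inhibits KEAP1, the protein that marks the transcription factor NRF2 for degradation. Polyadenylated RNA of 2 libraries per group, numbered 0 and 1, was sequenced, which makes 8 libraries in 4 groups. The study's methods call the 2 libraries of a group biological duplicates, and p-values measure the spread between them.

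Aldo-keto reductases are soluble enzymes that use NADPH to reduce aldehydes and ketones to alcohols. The AKR1C enzymes act on steroid hormones, prostaglandins and products of lipid peroxidation, the AKR1B enzymes on glucose, retinaldehyde and other aldehydes, and AKR1A1 and AKR7A2 on a broad range of small aldehydes. Several of them are known as NRF2 targets, which NRF2 activates through antioxidant response elements (AREs) in the DNA near the genes, and *AKR1B10* and the AKR1C genes are known for high expression in lung cancers with an active NRF2.

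Expression was measured in FPKM, in which fragments are scaled to transcript length and to the total mapped, so that levels can be compared between genes. Sums of FPKM differed by up to 1.18 times between libraries, and 12515 to 13573 genes reached 1 FPKM in a library. The depth of each library is unknown because FPKM carries no read count, and intervals from counting error are therefore left out. The authors' base mean, described below, is a count scaled to a common depth, but it is pooled over a line. All 8 genes of a list of epithelial markers had a mean of at least 1 FPKM in both lines. The lung adenocarcinoma markers *NKX2-1* and *NAPSA* stood between 42.4 and 47.1 FPKM and between 12.9 and 16.0 FPKM in the HCC4006 libraries, but no ABC1 library exceeded 0.763 FPKM for *NKX2-1* or 0.646 FPKM for *NAPSA*. *MUC1*, another gene of this list of 7, was high in both lines, at 66.1 to 121 FPKM in ABC1 and 76.3 to 112 FPKM in HCC4006. In all, 1 gene of the list averaged 1 FPKM or more in ABC1 and 3 in HCC4006. The surfactant gene *SFTPA1* was listed at 0 in all 8 libraries, and *SFTPB* at 0 in ABC1 and at no more than 0.277 FPKM in HCC4006. *NQO1*, *GCLM*, *SRXN1* and *TXNRD1*, which are well-known targets of NRF2, rose with DEM in both lines, by between 0.89 and 2.70 on the log2 scale.

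The AKR1C genes lie side by side on chromosome 10, and their sequences bear on every value given for them. On GRCh37, *AKR1C1* (ENSG00000187134.8) spans chr10:5005445-5025475 on the plus strand, *AKR1C2* (ENSG00000151632.12) chr10:5029967-5060223 on the minus strand and *AKR1C3* (ENSG00000196139.7) chr10:5077546-5149878 on the plus strand. The coding sequences of all 3 are 969 bases long. *AKR1C1* and *AKR1C2* differed at 19 of these bases (98.0% identity), *AKR1C1* and *AKR1C3* at 83 (91.4%) and *AKR1C2* and *AKR1C3* at 87 (91.0%). Of the differences between *AKR1C1* and *AKR1C2*, 10 fell within 60 bases, coding positions 103 to 162, the stretch of the coding sequence where a read can tell these genes apart best. The genome of GRCh37 reads as follows there, in an exon of each gene, at chr10:5008124-5008183 (plus strand) for *AKR1C1*, chr10:5043796-5043855 (minus strand) for *AKR1C2* and chr10:5138620-5138679 (plus strand) for *AKR1C3*, with capitals at the 15 positions that are not the same in all 3 genes.
AKR1C1: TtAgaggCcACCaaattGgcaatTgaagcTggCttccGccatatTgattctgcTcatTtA
AKR1C2: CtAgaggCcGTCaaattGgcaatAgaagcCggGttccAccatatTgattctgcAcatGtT
AKR1C3: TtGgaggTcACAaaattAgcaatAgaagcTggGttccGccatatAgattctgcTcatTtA
The longest stretch without a difference between *AKR1C1* and *AKR1C2* was 186 bases, and the longest shared by all 3 genes was 105 bases, both longer than the 80-base reads. Of the 890 windows of 80 bases in the *AKR1C1* coding sequence, 288 (32.4%) were also found in a transcript of another gene, compared with 37.6% for *AKR1C2* and 14.0% for *AKR1C3*. Such windows made up 10.4% for *AKR1B10*, shared with *AKR1B15* and *AKR1B10P1*, and 4.51% for *AKR7A2*, shared with *AKR7L* and *AKR7A3*. *AKR1B1* and *AKR1A1* shared none. The FPKM of the AKR1C genes is therefore uncertain in how reads were divided among them, and their sum is given beside the single values. The windows were single and taken from coding sequences only. Untranslated exons and the other read of a pair, which can also place a fragment, were not considered, so the size of this uncertainty is unknown.

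**Figure D1:**
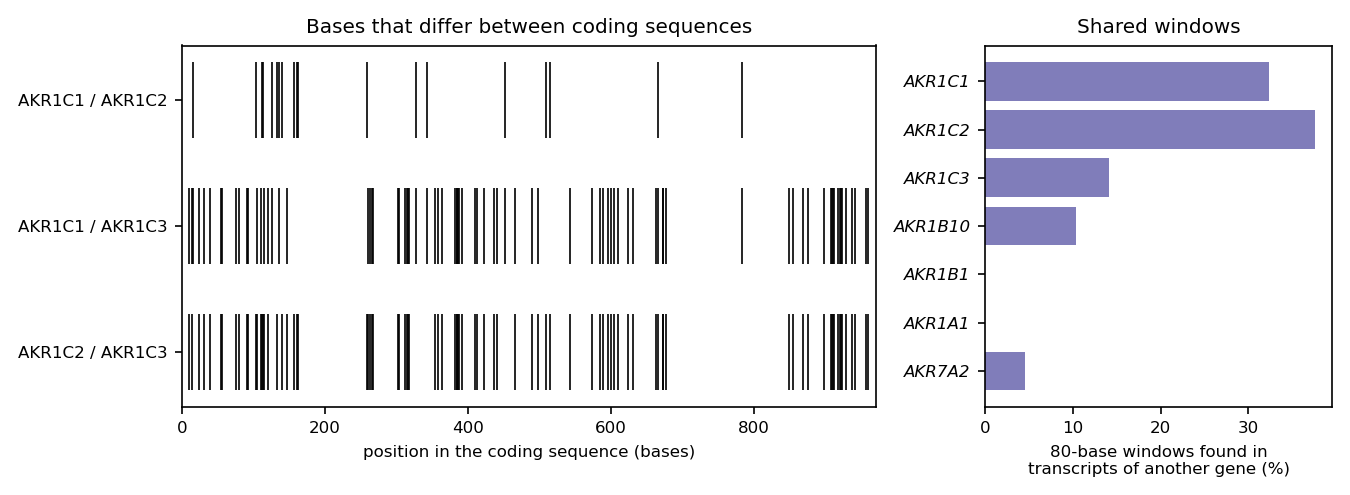
Left, the positions in the 969-base coding sequence (x axis, bases) at which the members of each AKR1C pair differ, 1 line per base. Right, the percentage of 80-base windows of each coding sequence that also occur in a transcript of another gene (bars), which is highest at 37.6% for *AKR1C2* and is 0 for *AKR1B1* and *AKR1A1*.

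Promoter sequences of the AKR1C genes are shown since these genes rose together with DEM, and they were nearly identical between *AKR1C1* and *AKR1C2*. In the RefSeq sequence of GRCh38.p14, a run of 245 of the 250 bases before the start was identical in *AKR1C1* and *AKR1C2*. Between *AKR1C1* (chr10:4963165-4963414, plus strand) and the closer of the RefSeq starts of *AKR1C3* (chr10:5094164-5094413, plus strand), 50 of 234 aligned bases differed. The 250 bases of both are given with capitals at bases that differ or have no counterpart in the other gene. The third sequence is that of *AKR7A2* (chr1:19312147-19312396, minus strand), which was not called in either line, with capitals at matches to the ARE core TGACNNNGC.
AKR1C1: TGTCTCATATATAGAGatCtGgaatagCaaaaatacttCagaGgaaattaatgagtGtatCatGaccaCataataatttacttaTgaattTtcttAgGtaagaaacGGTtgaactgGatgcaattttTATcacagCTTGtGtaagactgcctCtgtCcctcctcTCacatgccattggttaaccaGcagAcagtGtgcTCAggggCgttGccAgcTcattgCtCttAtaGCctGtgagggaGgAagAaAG
AKR1C3: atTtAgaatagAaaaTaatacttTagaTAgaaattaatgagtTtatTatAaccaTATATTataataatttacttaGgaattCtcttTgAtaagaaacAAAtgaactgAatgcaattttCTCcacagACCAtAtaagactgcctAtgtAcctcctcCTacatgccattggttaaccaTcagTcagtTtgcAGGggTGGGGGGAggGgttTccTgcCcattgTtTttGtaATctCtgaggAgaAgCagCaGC
AKR7A2: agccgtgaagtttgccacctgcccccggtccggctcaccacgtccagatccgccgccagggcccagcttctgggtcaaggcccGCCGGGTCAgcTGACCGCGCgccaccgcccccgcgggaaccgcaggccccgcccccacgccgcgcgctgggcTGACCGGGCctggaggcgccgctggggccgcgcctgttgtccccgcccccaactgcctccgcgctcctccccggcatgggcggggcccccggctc
The core TGACNNNGC, searched on both strands, was found 3 times in this *AKR7A2* sequence. It was found in no window of 300 bases (250 before the start and 50 after it) of *AKR1C1*, *AKR1C2*, *AKR1C3*, *AKR1B1* or *AKR1A1*, and *AKR1B10* was not searched here. Of all 35116 RefSeq windows of this length, 13.3% held at least 1 match. In the 5 kb before the start of the main transcript on GRCh37, the longer motif TGACNNNGCA (both strands, a pattern that contains the shorter core) was found for 5 of the 7 genes, compared with 45.6% of 19891 protein-coding genes. *AKR1C1* and *AKR1C2* held the same 20 bases around a match, 1870 and 1846 bases upstream of their starts, at chr10:5003732-5003751 (minus strand) and chr10:5047881-5047900 (plus strand). *AKR1B10* held a single match 2360 bases upstream, at chr7:134209954-134209973 (plus strand). In this window *AKR7A2* and *AKR1C2* held 3 matches, *AKR1C1* and *AKR1A1* 2 and *AKR1B10* 1, while *AKR1C3* and *AKR1B1* had none. All matches of *AKR7A2*, and a match each of *AKR1A1*, *AKR1C1* and *AKR1C2*, read TGACAGAGCA, with similar bases around it. Whether such matches lie in repeated sequence was not checked, so the counts are not counts of AREs. Neither *AKR7A2* nor *AKR1A1* was called with DEM, and a link between matches and response was not tested. The site shared by *AKR1C1* and *AKR1C2* and that of *AKR1B10* are shown with the match in capitals.
AKR1C1 and AKR1C2: taaaaTGACAAGGCAtacaa
AKR1B10: agaagTGACACTGCAcacat

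The first question was which of these enzymes each line expressed with vehicle. In ABC1, *AKR1A1*, *AKR7A2* and *AKR1C3* stood highest and *AKR1B1* was practically not expressed, whereas in HCC4006 *AKR1B1* was the highest of the 7 genes. *AKR1B1* (ENSG00000085662.9, chr7:134127108-134144036, minus strand) encodes aldose reductase, which turns glucose into sorbitol as the first step of the polyol pathway. It was at 0.0514 and 0 FPKM in the vehicle libraries of ABC1 and at 68.8 and 65.7 FPKM in those of HCC4006. *AKR1B10* (ENSG00000198074.5, chr7:134212319-134226164, plus strand), its neighbor and a reductase of retinaldehyde, was at 0.402 and 0.371 FPKM in ABC1 and at 6.40 and 6.24 FPKM in HCC4006. Both genes were thus higher in each HCC4006 library than in any ABC1 library.

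The AKR1C genes showed another pattern between the lines. *AKR1C3*, which makes testosterone and reduces prostaglandins, was at 10.6 and 18.8 FPKM with vehicle in ABC1 and at 0.331 and 0.709 FPKM in HCC4006. *AKR1C2*, which inactivates the androgen dihydrotestosterone, was at 2.97 and 7.78 FPKM in ABC1 and at 1.75 and 1.67 FPKM in HCC4006. *AKR1C1*, which inactivates progesterone, was at 0.863 and 0.834 FPKM in ABC1 and at 1.35 and 1.01 FPKM in HCC4006. *AKR1C3* and *AKR1C2* were higher in ABC1 with vehicle, and *AKR1C1* was low in both lines. Between the vehicle libraries of the lines none of the 7 genes overlapped. The share of all genes without overlap was not counted, so this cannot be read as particular to these genes. *AKR1A1* (ENSG00000117448.9, chr1:46016215-46035721, plus strand), a general aldehyde reductase, was at 47.4 and 50.3 FPKM in ABC1 and at 56.4 and 57.1 FPKM in HCC4006. *AKR7A2* (ENSG00000053371.8, chr1:19630459-19638638, minus strand), which reduces succinic semialdehyde, was at 24.4 and 27.2 FPKM in ABC1 and at 12.2 and 13.7 FPKM in HCC4006.

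Differences between the lines with vehicle were tested with limma, on log2(FPKM + 1), in a model of all 8 libraries with Benjamini-Hochberg adjustment over the 13682 genes that averaged 1 FPKM or more, and adjusted p-values under 0.05 were called. Of the 7 genes, 2 were called higher and 3 lower in HCC4006, whereas 36.8% of all genes tested were called higher and 30.2% lower. *AKR1B1* and *AKR1B10* reached the minimum of 1 FPKM only through the HCC4006 libraries, so their calls are no independent support. *AKR1B1* was higher in HCC4006 with a log2 difference of 6.06 (standard error [SE] 0.13, adjusted p = 3.4e-08) and *AKR1B10* by 2.40 (SE 0.11, adjusted p = 1.1e-06). *AKR1C3* was lower in HCC4006, with a log2 difference of -3.33 (SE 0.26, adjusted p = 1.8e-05), as were *AKR7A2* with -0.94 (adjusted p = 0.000699) and *AKR1C2* with -1.12 (adjusted p = 0.0173). The size of a difference depends on the pseudocount where a line is under 1 FPKM. With a pseudocount of 0.1 it was 9.10 for *AKR1B1*, 3.72 for *AKR1B10* and -4.59 for *AKR1C3*. The call of *AKR1C2* was lost without HCC4006 vehicle library 0 (adjusted p = 0.0678) or 1 (adjusted p = 0.0759) and with no minimum (adjusted p = 0.0953), and its difference was -1.70 without ABC1 vehicle library 0 and -0.55 without ABC1 vehicle library 1. The log2 difference was 0.23 for *AKR1C1* (95% interval -0.07 to 0.54, adjusted p = 0.151) and 0.21 for *AKR1A1* (95% interval -0.08 to 0.50, adjusted p = 0.166), and neither was called.

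The second question was how the enzymes responded to DEM within each line. In ABC1, the AKR1C genes rose and neither *AKR1A1* nor *AKR7A2* was called. In RNA from whole cultures, more RNA per cell and more cells that express a gene cannot be told apart. *AKR1C1* went from 0.863 and 0.834 FPKM with vehicle to 15.8 and 17.5 FPKM with DEM. *AKR1C2* went from 2.97 and 7.78 FPKM to 60.3 and 78.6 FPKM. *AKR1C3* went from 10.6 and 18.8 FPKM to 75.6 and 82.1 FPKM. In all 3 genes every DEM library was above every vehicle library, although vehicle library 1 was higher than vehicle library 0 for *AKR1C2* and *AKR1C3*. Of the 7 genes, 5 reached a mean of 1 FPKM in ABC1 and were tested, and 3 of these were called upregulated and 0 downregulated. Over all 12635 genes tested in this line, 0.768% were called upregulated and 0.435% downregulated, and of the 5 genes none with a negative change had an unadjusted p under 0.05.

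The log2 fold change of *AKR1C1* in ABC1 was 3.25 (SE 0.15, adjusted p = 0.00428 by limma), which is a ratio of mean FPKM of 19.6. *AKR1C1* reached the minimum of 1 FPKM only through the DEM libraries, so its call is no independent support for a rise. *AKR1C2* had a log2 fold change of 3.56 (SE 0.37, adjusted p = 0.0307) and a ratio of means of 12.9, and *AKR1C3* one of 2.40 (SE 0.26, adjusted p = 0.0317) and a ratio of means of 5.37. The median of the 5 genes was 2.40, compared with -0.02 over all genes tested. Without vehicle library 0 or 1 the log2 fold change of *AKR1C2* was 2.99 or 4.14. The calls of *AKR1C2* and *AKR1C3* were lost without DEM library 1 (adjusted p = 0.0530 and 0.0573) and with no mean-variance trend (adjusted p = 0.0539 and 0.0563), and that of *AKR1C3* without vehicle library 0 (adjusted p = 0.0741). When genes under 1 FPKM were kept, limma called 0 genes in ABC1 (3883 had an unadjusted p under 0.05), and *AKR1C1*, *AKR1C2* and *AKR1C3* had adjusted p of 0.110, 0.205 and 0.196.

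The AKR1B genes averaged under 1 FPKM in ABC1 and were left out of the test within this line. *AKR1B10* was at 0.402 and 0.371 FPKM with vehicle and at 1.45 and 1.56 FPKM with DEM, with no overlap, and *AKR1B1* at 0.0514 and 0 FPKM with vehicle and at 0.554 and 0.226 FPKM with DEM. Without the minimum, *AKR1B10* had a log2 fold change of 0.85 (adjusted p = 0.185), and in the fit of all 8 libraries, where it passed the minimum through HCC4006, it was called with the same fold change (adjusted p = 0.00646). No fold change is given for *AKR1B1*, which was listed at 0 in a vehicle library. *AKR1A1* was at 50.5 and 39.2 FPKM with DEM in ABC1, above and below its vehicle values, and its log2 fold change was -0.13 (95% interval -0.52 to 0.26, adjusted p = 0.666). *AKR7A2* was at 20.5 and 21.9 FPKM with DEM, below both vehicle libraries, with a log2 fold change of -0.27 (95% interval -0.59 to 0.05, adjusted p = 0.285).

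**Figure D2:**
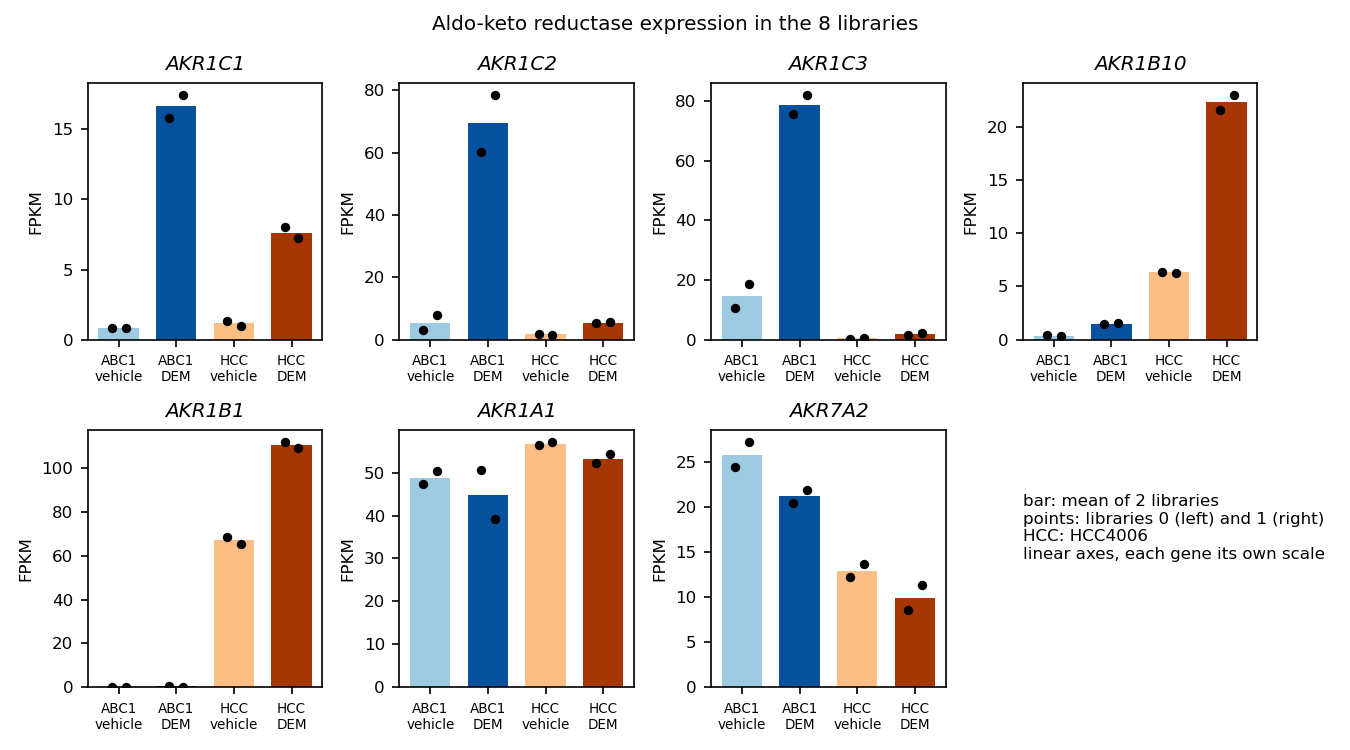
FPKM (linear y axis, a separate scale for each gene) of the 7 genes in the 4 groups, with the mean of 2 libraries as a bar and the libraries as points. *AKR1C1*, *AKR1C2* and *AKR1C3* reach 15.8 to 82.1 FPKM with DEM in ABC1, while *AKR1B1* is at 65.7 FPKM or more in every HCC4006 library and at 0.554 FPKM or less in every ABC1 library.

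In HCC4006, DEM raised the AKR1B and the AKR1C genes. *AKR1B10* went from 6.40 and 6.24 FPKM with vehicle to 21.6 and 23.0 FPKM with DEM. *AKR1B1* went from 68.8 and 65.7 FPKM to 112 and 109 FPKM. *AKR1C1* went from 1.35 and 1.01 FPKM to 8.04 and 7.25 FPKM. These genes did not overlap between vehicle and DEM, and the libraries of a group lay close together. *AKR1C2* went from 1.75 and 1.67 FPKM to 5.35 and 5.52 FPKM, and *AKR1C3* from 0.331 and 0.709 FPKM to 1.61 and 2.36 FPKM, also with no overlap. *AKR1A1* was at 56.4 and 57.1 FPKM with vehicle and at 52.2 and 54.3 FPKM with DEM. *AKR7A2* was at 12.2 and 13.7 FPKM with vehicle and at 8.55 and 11.4 FPKM with DEM, lower in both DEM libraries than in either vehicle library.

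All 7 genes were tested in HCC4006, and 5 were called upregulated and 0 downregulated. Over the 13542 genes tested in this line, 8.45% were called upregulated and 10.7% downregulated, and no member with a negative change had an unadjusted p under 0.05. The log2 fold change was 1.99 for *AKR1C1* (SE 0.15, adjusted p = 0.00181), 1.67 for *AKR1B10* (SE 0.10, adjusted p = 0.00085) and 1.25 for *AKR1C2* (SE 0.14, adjusted p = 0.00467), all by limma. It was 0.97 for *AKR1C3* (SE 0.23, adjusted p = 0.0368) and 0.71 for *AKR1B1* (SE 0.07, adjusted p = 0.00331). The ratios of mean FPKM were 6.47 for *AKR1C1*, 3.82 for *AKR1C3*, 3.53 for *AKR1B10*, 3.18 for *AKR1C2* and 1.64 for *AKR1B1*. *AKR1A1* had a log2 fold change of -0.09 (95% interval -0.26 to 0.08, adjusted p = 0.392) and *AKR7A2* one of -0.36 (95% interval -0.73 to 0.01, adjusted p = 0.142). The median of the 7 genes was 0.97, compared with -0.03 over all genes tested.

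*AKR1C3* reached the minimum in HCC4006 only through the DEM libraries, so its call is no independent support for a rise. The call was lost without vehicle library 0 (log2 fold change 0.79), vehicle library 1 (1.16) or DEM library 0 (1.16). Without DEM library 1 *AKR1C3* averaged under 1 FPKM and was not tested, so its call held with no library left out. The calls of *AKR1C2* and *AKR1C3* were also lost when all 8 libraries were fitted together (adjusted p = 0.0514 and 0.0545). With no minimum those of *AKR1C1* (adjusted p = 0.0583), *AKR1C2* (adjusted p = 0.0601) and *AKR1C3* (adjusted p = 0.205) were lost. Counted by library values alone, 3 of the 5 genes tested in ABC1 and 5 of the 7 tested in HCC4006 were higher in both DEM libraries than in both vehicle libraries. The share of all genes tested with this order was 25.5% in ABC1 and 29.3% in HCC4006. The AKR1B genes had this order in ABC1 too, under 1 FPKM on average. *AKR1C1* in ABC1 and *AKR1C3* in HCC4006 passed the minimum only through the DEM libraries, so they add no independent support to these counts. *AKR7A2* was lower in both DEM libraries in both lines, an order seen in 28.2% of genes in ABC1 and 35.3% in HCC4006.

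**Figure D3:**
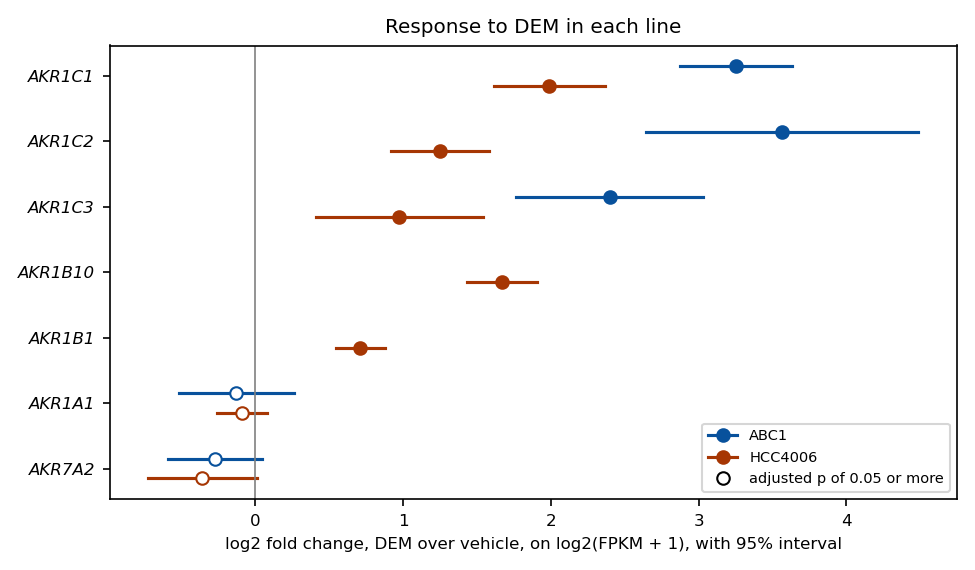
Log2 fold change of DEM over vehicle on log2(FPKM + 1) (x axis) with its 95% interval, for the genes tested in ABC1 (blue) and HCC4006 (brown). Filled points mark an adjusted p under 0.05, which the AKR1C genes reached in both lines, and the intervals of *AKR1A1* and *AKR7A2* include 0.

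The response to DEM was then compared between the lines, as the difference of the log2 fold changes in the model of all 8 libraries. *AKR1C1* rose more in ABC1 than in HCC4006, with a difference of -1.26 (HCC4006 minus ABC1, SE 0.19, adjusted p = 0.0388 by limma). It was the only one of the 7 genes called, whereas 0.329% of the 13682 genes tested were called with a higher response in ABC1 and 0.307% with a higher response in HCC4006. This call rests on every library, since leaving out any of the 8 gave an adjusted p between 0.0663 and 0.170. It was also lost with a pseudocount of 0.1 (-1.53, adjusted p = 0.0984) or 0.5 (-1.38, adjusted p = 0.0629), and with the replicate number as a block (adjusted p = 0.0804). *AKR1C2* had a difference of -2.32 (95% interval -3.40 to -1.23, adjusted p = 0.0843) and *AKR1C3* one of -1.42 (95% interval -2.28 to -0.56, adjusted p = 0.141). The value for *AKR1C3* depends on the pseudocount of 1, which exceeds its level in the HCC4006 vehicle libraries. With a pseudocount of 0.1 it was -0.67 (adjusted p = 0.658), and the ratio of means of *AKR1C3* was 5.37 in ABC1 and 3.82 in HCC4006. Without ABC1 vehicle library 1, which was the higher of the pair, *AKR1C2* was called with a difference of -2.89 (adjusted p = 0.0147).

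*AKR1B10* had a difference of 0.82 in favor of HCC4006 (95% interval 0.45 to 1.18, adjusted p = 0.0747), but its ratio of means was 3.90 in ABC1 and 3.53 in HCC4006, since the pseudocount of 1 exceeds its level in the ABC1 vehicle libraries. With a pseudocount of 0.1 the difference was 0.08 (adjusted p = 0.924). The difference was 0.28 for *AKR1B1* (adjusted p = 0.553), 0.04 for *AKR1A1* (adjusted p = 0.948) and -0.09 for *AKR7A2* (adjusted p = 0.898).

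The make-up of the enzyme family by FPKM was not the same with DEM as with vehicle, and is given by line without a test. In ABC1 the FPKM of *AKR1C1*, *AKR1C2* and *AKR1C3* summed to 14.4 and 27.4 with vehicle and to 152 and 178 with DEM, a ratio of means of 7.89. In HCC4006 the sum was 3.44 and 3.38 with vehicle and 15.01 and 15.14 with DEM, a ratio of 4.42. A read given to the wrong one of the 3 genes still enters this sum, apart from differences in transcript length. Leaving out a library moved the ratio between 6.02 and 11.4 in ABC1, where vehicle library 1 was the higher, and between 4.39 and 4.45 in HCC4006.

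Within this sum, *AKR1C3* made up a mean of 71.0% with vehicle and 48.0% with DEM in ABC1, while *AKR1C2* went from 24.5% to 41.9% and *AKR1C1* from 4.51% to 10.1%. In HCC4006, *AKR1C1* went from 34.6% to 50.7%, *AKR1C2* from 50.1% to 36.1% and *AKR1C3* from 15.3% to 13.2%. The shares of *AKR1C3* overlapped between the groups in HCC4006 (9.62% and 21.0% with vehicle, 10.7% and 15.6% with DEM). Those of *AKR1C1* and *AKR1C2* did not overlap in either line. Over all 7 genes, the sum went from 86.7 and 105 FPKM to 225 and 241 FPKM in ABC1 and from 147 and 146 FPKM to 209 and 213 FPKM in HCC4006. *AKR1A1* made up a mean of 51.2% of this sum with vehicle and 19.4% with DEM in ABC1, and *AKR1B1* made up 45.8% with vehicle and 52.4% with DEM in HCC4006. The share of *AKR1B10* in HCC4006 was 4.31% with vehicle and 10.6% with DEM.

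**Figure D4:**
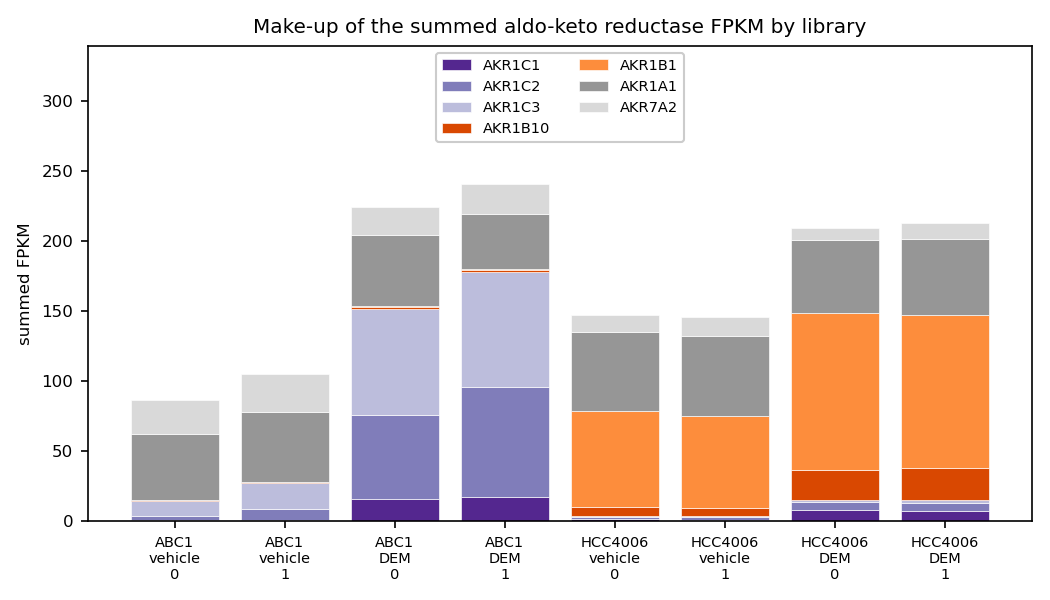
Summed FPKM (y axis) of the 7 genes in each of the 8 libraries, stacked by gene. The AKR1C genes (purple) sum to 152 and 178 FPKM in the DEM libraries of ABC1, and the AKR1B genes (orange) make up the largest part in the HCC4006 libraries.

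Ordered by level, the genes of ABC1 stood with vehicle as *AKR1A1*, *AKR7A2*, *AKR1C3*, *AKR1C2*, *AKR1C1*, *AKR1B10* and *AKR1B1*, and with DEM as *AKR1C3*, *AKR1C2*, *AKR1A1*, *AKR7A2*, *AKR1C1*, *AKR1B10* and *AKR1B1*. *AKR1C3* (75.6 to 82.1 FPKM) and *AKR1C2* (60.3 to 78.6 FPKM) overlapped with DEM, and no other neighbors in these orders did. In HCC4006 the order with vehicle was *AKR1B1*, *AKR1A1*, *AKR7A2*, *AKR1B10*, *AKR1C2*, *AKR1C1* and *AKR1C3*. With DEM it was *AKR1B1*, *AKR1A1*, *AKR1B10*, *AKR7A2*, *AKR1C1*, *AKR1C2* and *AKR1C3*. No neighbors overlapped in either order, and *AKR1B10* and *AKR7A2* changed places with DEM. *AKR1C1* and *AKR1C2* did so by FPKM, which is uncertain in how reads were divided between them. The base mean, described next, put *AKR1C1* below *AKR1C2* over the line. It is not divided by transcript length and pools vehicle with DEM, so it cannot decide the order with DEM.

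Since similar sequences can be counted differently by different tools, the FPKM of the AKR1C genes was set beside the base mean in the authors' deposited tables, which is the authors' mean over the 4 libraries of a line of read counts scaled to a common depth. An FPKM estimator divides a read that fits several genes among them, whereas a read counter by default leaves such a read out, and the settings used were not given in the sources used here. In ABC1 the base mean was 122.7 for *AKR1C1*, 754 for *AKR1C2* and 888 for *AKR1C3*, beside mean FPKM of 8.74, 37.4 and 46.8. In HCC4006 it was 68.2, 79.1 and 23.1, beside mean FPKM of 4.41, 3.57 and 1.25. The order of the 3 genes was thus the same by both measures in ABC1, while in HCC4006 *AKR1C1* stood above *AKR1C2* by FPKM and below it by base mean. Unlike FPKM, base mean is not divided by transcript length, so the order of different genes need not be the same by both measures.

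Base mean per FPKM was 14.0 for *AKR1C1*, 20.2 for *AKR1C2* and 19.0 for *AKR1C3* in ABC1, and 15.5, 22.1 and 18.4 in HCC4006. Divided by the length of the union of exons and by the median of protein-coding genes, it was 0.291 for *AKR1C1*, 0.603 for *AKR1C2* and 0.884 for *AKR1C3* in ABC1, and 0.317, 0.653 and 0.846 in HCC4006. All 3 genes lay within the 5th to 95th percentile of protein-coding genes in both lines (0.223 to 2.42 in ABC1), with *AKR1C1* at percentile 7.22 in ABC1 and 8.50 in HCC4006. The annotated exons of *AKR1C1* cover 8765 bases, far more than its coding part, in an annotation newer than that of the files. With the coding length in place of the exons, an alternative chosen after seeing the data, the ratios were 0.758, 1.09 and 1.03 in ABC1 and 0.823, 1.18 and 0.981 in HCC4006. *AKR1C1* remained the lowest of the 3 by either length.

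Length cancels when the lines are compared. *AKR1C3* was 37.3 times higher in ABC1 than in HCC4006 by mean FPKM over the 4 libraries and 38.4 times by base mean, *AKR1C2* 10.5 and 9.54 times, and *AKR1C1* 1.98 and 1.80 times. *AKR1B10* was higher in HCC4006, 15.1 times by FPKM and 18.7 times by base mean. The log2 ratio of base mean per FPKM between the lines (HCC4006 over ABC1) was 0.14 for *AKR1C1*, 0.13 for *AKR1C2* and -0.04 for *AKR1C3*, inside the range of -0.31 to 0.23 that held 90% of 10298 protein-coding genes. *AKR1B10* (0.31) and *AKR1B1* (-0.70), both under 1 FPKM on average in ABC1, lay outside it.

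**Figure D5:**
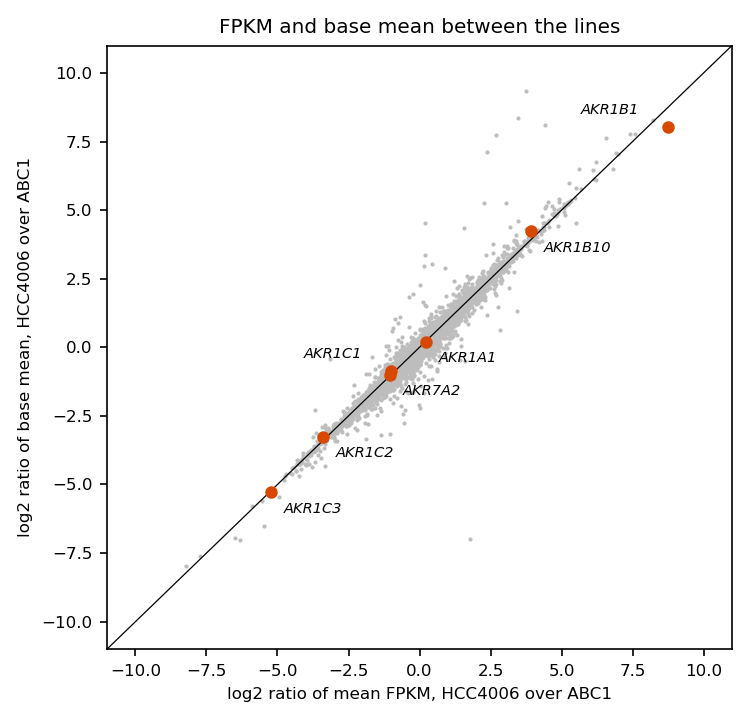
Log2 ratio of HCC4006 over ABC1 by mean FPKM (x axis) and by the authors' base mean (y axis) for protein-coding genes at 1 FPKM or more in both lines (grey) and for the 7 genes (orange), with the line of equal ratios. The AKR1C genes lie close to that line, and *AKR1B1*, which was nearly absent from ABC1, lies below it.

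Other members of the superfamily gave no calls. Of 12 listed, 9 had an identifier, and *KCNAB1*, *KCNAB2* and *KCNAB3*, which encode beta subunits of potassium channels, were tested in ABC1, and *AKR1E2* and *KCNAB2* in HCC4006. By limma 0 were called in either line, and 0 had an unadjusted p under 0.05. *AKR1E2*, a neighbor of the AKR1C genes, was at 10.5 and 8.92 FPKM with vehicle and at 8.22 and 7.47 FPKM with DEM in HCC4006 (log2 fold change -0.27, adjusted p = 0.169). *KCNAB2* was between 16.4 and 19.4 FPKM in HCC4006 and between 0.603 and 1.45 FPKM in ABC1. The hepatic members *AKR1C4* and *AKR1D1* did not exceed 0.0672 FPKM in any library. Of 16 aldo-keto reductase pseudogenes, 10 were listed at 0 in all libraries and the highest value was 0.477 FPKM.

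Genes of the pathways these enzymes serve were described next, by lists chosen for their roles. NADPH, the cofactor of the family, is supplied by the pentose phosphate pathway and malic enzyme. The list of 15 genes of NADPH supply held genes of both and also *IDH1*, *IDH2*, *NADK*, *NADK2* and *NNT*. Of these 15 genes, all tested in HCC4006, 6 were called upregulated and 2 downregulated, with a median log2 fold change of 0.12. Here and for the lists that follow, 8.45% of all genes tested in HCC4006 were called upregulated and 10.7% downregulated, and 0.768% and 0.435% in ABC1. *ME1*, the cytosolic malic enzyme, rose from 29.3 and 29.9 FPKM to 61.6 and 66.3 FPKM (log2 fold change 1.08, adjusted p = 0.00163), and *PGD*, an enzyme of the pentose phosphate pathway, from 187 and 191 FPKM to 363 and 370 FPKM (0.95, adjusted p = 0.001). In ABC1 0 of 13 were called by limma and 4 had an unadjusted p under 0.05. Beside such counts, here and for the lists that follow, 2771 of all 12635 genes tested in ABC1 had an unadjusted p under 0.05.

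Other carbonyl reductases and aldehyde dehydrogenases, which act on overlapping substrates, went both ways in HCC4006, with 8 of 31 upregulated and 6 downregulated (8.45% and 10.7% of all genes) and a median log2 fold change of 0.00. *CBR3*, a carbonyl reductase, rose from 6.21 and 7.32 FPKM to 34.7 and 37.3 FPKM (2.25, adjusted p = 0.000524). *ALDH1A3*, which oxidizes retinaldehyde to retinoic acid, fell from 344 and 342 FPKM to 109 and 112 FPKM (-1.63, adjusted p = 0.000253). In ABC1 only *NQO1* of 26 genes was called, with a log2 fold change of 1.59 (adjusted p = 0.0422) and a median over the list of -0.11.

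Of 19 genes of steroid and prostanoid metabolism tested in HCC4006, 1 was called upregulated and 5 downregulated (8.45% and 10.7% of all genes), with a median log2 fold change of -0.23. *PTGS2*, the inducible cyclooxygenase that starts prostaglandin synthesis, fell from 24.8 and 28.0 FPKM to 6.03 and 5.91 FPKM (-1.97, adjusted p = 0.000677). *PTGES*, which makes prostaglandin E, fell from 19.5 and 21.4 FPKM to 10.2 and 9.89 FPKM (-0.96, adjusted p = 0.00391). The gene that rose was *HSD17B7*, an enzyme of cholesterol synthesis, with a log2 fold change of 0.69 (adjusted p = 0.0131), named after its value was seen. In ABC1 0 of 19 were called by limma and 3 had an unadjusted p under 0.05, with a median of 0.03. Of the polyol and methylglyoxal genes, *HAGH*, which clears a glutathione adduct of methylglyoxal, rose in HCC4006 (0.49, adjusted p = 0.0158) and *KHK*, the fructokinase downstream of the polyol pathway, fell (-0.96, adjusted p = 0.00866), of 9 tested with a median of -0.10. In ABC1 0 of 8 were called, 2 had an unadjusted p under 0.05 and the median was -0.02.

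For each gene, the 3 genes with the most similar pattern were found by Pearson's r of log2(FPKM + 1) over the 8 libraries, among 13682 genes. These values describe 4 groups of 2 libraries, so r is high for any gene that follows the line and the treatment in the same way. *AKR1C1* was closest to *MEGF9* (r = 0.987), *KEAP1* (r = 0.981) and *KIFC2* (r = 0.981). The mean FPKM of *KEAP1*, the inhibitor of NRF2 that DEM acts on, was 47.0 with vehicle and 93.7 with DEM in ABC1, and 77.3 with DEM in HCC4006. *AKR1C2* was closest to *MAPRE3*, *NT5DC3* and *TMEM41B* (r = 0.984 to 0.989), *AKR1C3* to *PAK2*, *TOX* and *GPR107* (r = 0.997 to 0.998) and *AKR1B10* to *FAM83G*, *ARHGAP17* and *RNF103* (r = 0.997 to 0.999). *AKR1B1* was closest to *GRB10*, *NUPR1* and *MTM1* (r = 0.9992 to 0.9997), whose mean FPKM was likewise higher in HCC4006 than in ABC1. *AKR1A1* was closest to *MRPS36*, *STX12* and *KYAT3* (r = 0.967 to 0.983) and *AKR7A2* to *LINC00857*, *CPNE1* and *DDOST* (r = 0.994 to 0.995).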

How the data were processed

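RNA of 8 libraries (2 each of ABC1 and HCC4006 with vehicle or DEM) was sequenced by the authors as strand-specific, polyA-selected libraries with 80-base paired reads. The deposited values are FPKM per gene and library. The paper's methods name TopHat and Cufflinks, while the submitters' processing notes list STAR 2.5.3a, Cuffnorm, HTSeq and DESeq2, both on hg19 (GRCh37). The authors' deposited tables of their own comparison hold fold changes and p-values, which were not used, and a base mean, a signal pooled over the libraries of a line (counts scaled to a common depth), which was.

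Here, log2(FPKM + 1) was fitted with limma 3.58.1 (R 4.3.3, mean-variance trend, two-sided, Benjamini-Hochberg adjustment over genes that averaged 1 FPKM or more), within each line for DEM and over all 8 libraries for differences between lines. The script was tested on simulated data. With 2 libraries against 2, an exact permutation test of a gene cannot give a p under 0.333. Symbols were found for 55534 of 57815 identifiers. Sequences came from GRCh37, GENCODE annotation and RefSeq promoter windows (GRCh38.p14), aligned with Biopython 1.88. The genes, the pathway lists and the tests were chosen with earlier results of these data known. Named genes were the 7 members, expressed members of the superfamily, the 2 called genes with the largest change per list and line, the 3 closest patterns per member and 4 NRF2 targets. Alternatives were other pseudocounts (0.1, 0.5), no minimum, median-of-ratios scaling, no trend, a fit of all libraries, a replicate block and leaving out each library.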

Additional observations from a re-analysis of the deposited data

Results flagged for a closer look

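The response of *AKR1C1* to DEM differed between the lines by the test of the difference itself, which is what brought it here. The value was -1.26 on the log2(FPKM + 1) scale (HCC4006 minus ABC1, adjusted p = 0.0388 by limma), from log2 fold changes of 3.25 in ABC1 and 1.99 in HCC4006. Across the other settings and left-out libraries the difference lay between -1.53 and -1.15 and the adjusted p between 0.0303 and 0.170. The call was lost with the replicate number as a block (adjusted p = 0.0804), with a pseudocount of 0.1 or 0.5 and with any library left out. Both DEM libraries of ABC1 (15.8 and 17.5 FPKM) were above both of HCC4006 (8.04 and 7.25 FPKM).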

How the results depend on the processing

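The direction of every called change of the 7 genes was the same under all alternatives run, but the number of calls was not. In ABC1, 97 genes were called upregulated and 55 downregulated. With no expression minimum these counts were 0 and 0 (3883 genes had an unadjusted p under 0.05), with median-of-ratios scaling 184 and 115, with no mean-variance trend 27 and 6, with all 8 libraries fitted together 738 and 756, and with a library left out 10 to 51 and 8 to 18. Of the members, 0 were called upregulated without the minimum, 1 without the trend, 4 with all 8 libraries fitted together, where *AKR1B10* was added, and 1 to 3 with a library left out. In HCC4006 (1144 and 1447), the counts were 177 and 193 without the minimum, 706 and 847 with all 8 libraries, and 290 to 464 and 344 to 564 with a library left out, while the members called upregulated were 2, 3 and 4 in this order. In the fits with a library left out, the lone library of a group is taken to vary like the others.

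The replicate block gave 1185 upregulated and 1163 downregulated genes in ABC1 and 1457 and 1847 in HCC4006, with 3 and 5 members upregulated as before. The labels do not say that a number marks a shared culture or day, and deviations of same-numbered libraries correlated with an r of 0.258 in ABC1 and 0.0544 in HCC4006, which with 2 pairs a line does not settle whether the numbers pair the libraries, and they were treated as sharing only a number. For the difference of the response, 0 members were called with a higher response in ABC1 under the block and with a pseudocount of 0.1 or 0.5. With all libraries 4 members had an unadjusted p under 0.05 by limma, beside 2068 of all 13682 genes tested. Without the minimum, 1 member, *AKR1B10*, was called with a higher response in HCC4006.

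Uncalled values changed sign in a few cases. The difference of the response of *AKR1B1* was -1.19 with a pseudocount of 0.1 and -0.023 with 0.5, because the pseudocount sets the value of a gene near 0 in ABC1. With a library left out, the change of *AKR1A1* in ABC1 lay between -0.31 and 0.048, its difference between the lines between -0.14 and 0.22, and that of *AKR7A2* between -0.27 and 0.10. In ABC1 the base mean, a scaled count pooled over the line, was 4.46 for *AKR1B1* and 15.4 for *AKR1B10*. The depth of each library is unknown, and changes of genes under 1 FPKM were limited by the measurement.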

Other observations

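The genes beside the family members were looked at within 200 kb on GRCh37, among those tested in a line. Around the AKR1C genes only *AKR1E2* was tested, in HCC4006, and it was not called. Around *AKR1A1*, which was not called, 7 genes were tested in HCC4006, of which 1 was called upregulated and 1 downregulated, beside 8.45% and 10.7% of all genes tested in the line. *PRDX1*, a peroxiredoxin at chr1:45976586-46008404 that is known as an NRF2 target, went from a mean of 176 FPKM to 313 FPKM with DEM (log2 fold change 0.82, adjusted p = 0.00319 by limma). *NASP*, a histone chaperone at chr1:46049518-46084576, went from 109 to 58.1 FPKM (-0.90, adjusted p = 0.00384).

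Around *AKR7A2*, 7 genes were tested in HCC4006, of which 2 were called upregulated and 1 downregulated, beside 8.45% and 10.7% of all genes tested. *UBR4*, a ubiquitin ligase, rose from a mean of 15.3 to 28.8 FPKM (0.89, adjusted p = 0.0301), and *MRTO4*, a ribosome assembly factor, fell from 29.2 to 21.9 FPKM (-0.40, adjusted p = 0.024). *SLC66A1*, a lysosomal amino acid transporter that starts beside *AKR7A2* on the other strand (chr1:19638820-19655794), rose in HCC4006 from a mean of 8.21 to 13.6 FPKM (0.67, adjusted p = 0.0139). Of 3 genes tested around the AKR1B genes in HCC4006, 1 was called upregulated and 0 downregulated, beside the same shares of all genes (8.45% and 10.7%). The long noncoding RNA *LINC03060*, next to *AKR1B1* on the same strand (chr7:134053489-134117286), rose in HCC4006 from 1.80 to 5.06 FPKM (1.14, adjusted p = 0.0247). In ABC1, 0 of the 8 genes tested around *AKR1A1*, 0 of the 8 around *AKR7A2* and 0 of the 2 around the AKR1B genes were called. Of all genes tested in ABC1, 0.768% were called upregulated and 0.435% downregulated. These genes were named after their values were seen.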
